A study of Homo sapiens with 8 samples.

Results

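Mucins and trefoil factors were followed through UHRF1 depletion and histone deacetylase (HDAC) inhibition in DLD1, an established colorectal cancer cell line. The members were 10 genes, taken as every non-control probe that the array design names MUC1, MUC2, MUC4, MUC5AC, MUC5B, MUC12, MUC13, TFF1, TFF2 or TFF3. This gave 23 of the 50599 probes on the array. DLD1 cells were transfected for 48 h with a control siRNA (siCONT) or with an siRNA to UHRF1 (siUHRF1), a factor that maintains DNA methylation through cell division, and then received ethanol (mock) or 300 nM trichostatin A (TSA), an HDAC inhibitor, for 24 h. The 4 groups, siCONT with mock, siUHRF1 with mock, siCONT with TSA and siUHRF1 with TSA, held 2 arrays each, 8 in all. All cells were DLD1, and the control groups also carried an siRNA and, under mock, the ethanol vehicle. The 2 arrays of each siUHRF1 group came from 2 different siRNAs, numbered 1 and 2 here, whereas the sources do not say whether the siCONT arrays came from separate cultures.

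Mucins are large proteins densely coated with O-linked sugars. MUC2, MUC5AC and MUC5B are secreted and form the mucus gel, with MUC2 the main mucin of intestinal goblet cells and MUC5AC that of the gastric surface, while MUC1, MUC4, MUC12 and MUC13 sit in the cell membrane. Trefoil factors are small secreted peptides, built around the disulfide-linked trefoil domain, that are released with mucus and take part in epithelial repair. In the normal gut TFF1 accompanies MUC5AC at the gastric surface, TFF2 belongs to gastric gland and neck mucous cells, and TFF3 accompanies MUC2 in goblet cells. The TFF genes lie side by side on chromosome 21, and MUC2, MUC5AC and MUC5B lie together on chromosome 11.

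Each probe is a 60-base sequence, and the probes below are those on which the results turn. For the trefoil factors, capitals mark the motif TGNAGTGCCNTGGTGNTTC, read from the TFF2 and TFF3 probes themselves. It was found, with both strands searched, in these 2 probes of the 50599 on the array (0.00395%), and in both it lies in the stretch that codes for the trefoil domain.
TFF1, chr21:43783440-43783499, minus strand: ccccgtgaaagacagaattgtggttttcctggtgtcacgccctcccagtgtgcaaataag
TFF2, chr21:43766648-43767646, minus strand: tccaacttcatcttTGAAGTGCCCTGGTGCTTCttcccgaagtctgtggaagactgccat
TFF3, chr21:43733595-43733654, minus strand: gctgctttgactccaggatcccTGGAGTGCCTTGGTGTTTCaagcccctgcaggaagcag
The coordinates are those of the array design on hg19. The 60 bases of the TFF2 probe were spread over 999 bp of the genome, so this probe spans a splice junction.

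The mucin probes include stretches of the repeats that carry the sugars. In MUC4, capitals mark CACTTCCTCAGCATCCACAGG, found on either strand in 2 probes (0.00395%), both of MUC4.
MUC5AC, no genome position in the design: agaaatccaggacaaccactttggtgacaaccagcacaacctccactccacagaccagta
MUC2, chr11:1103558-1103831, plus strand: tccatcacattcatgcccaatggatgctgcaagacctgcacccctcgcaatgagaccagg
MUC2, chr11:1092337-1092396, plus strand: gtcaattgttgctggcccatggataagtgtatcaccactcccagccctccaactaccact
MUC4, chr3:195474164-195474223, minus strand: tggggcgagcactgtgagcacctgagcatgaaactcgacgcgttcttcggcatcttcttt
MUC4, chr3:195506310-195506369, minus strand: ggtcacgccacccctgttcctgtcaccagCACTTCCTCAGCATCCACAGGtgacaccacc
MUC4, chr3:195514780-195514839, minus strand: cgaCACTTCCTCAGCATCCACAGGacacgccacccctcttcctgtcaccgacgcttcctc
The MUC2 probes start at positions 15183 and 4182 of the transcript in the order printed. The first MUC4 probe starts at position 16218 and holds no repeat motif. The remaining MUC4 probe shares 40 bases with the last one printed, so those readings are not separate measurements of the gene.

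Levels are log2 intensity relative to the 75th percentile of the same array, so 0 is that percentile and 1 unit is a 2-fold difference. Levels of different probes cannot be set against each other. Over the 8 arrays 43.3% to 48% of probes were well above background. All 12 markers of colorectal epithelial lines were above background on every array, whereas of the goblet cell markers 7 of 9 were so on at least 1 array, ATOH1 and CLCA1 on none. Of 12 fibroblast, endothelial and leukocyte markers on the array, 7 were above background on at least 1 array and 1 on all. The siCONT arrays of one agent differed by about the noise between spots of one array (1.09 and 1.2 times it), against 13.4 and 10.5 times for the siRNAs of the siUHRF1 groups. The siCONT arrays were therefore counted as 1 sample in means, which carry no SD, and calls of member probes are also given for the fit that treats them so. Every p-value measures only the spread between these arrays, which may be technical. The targeted gene was lower with both siRNAs. With TSA in siCONT cells its probes changed by −1.13 and −0.97 (limma adjusted p = 0.0493 and 0.0175). Neither was called with the siCONT arrays as 1 sample (0.357 and 0.279). At the probe with the stronger signal the siRNAs left 31.9% and 24.8% of the siCONT signal under mock, and 16.7% and 11.1% under TSA. The UHRF1 probe with the stronger signal read 1.98 and 2.01 in siCONT with mock, 0.34 and −0.02 in siUHRF1 with mock, 1.04 and 1.01 in siCONT with TSA, and −1.55 and −2.14 in siUHRF1 with TSA.

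Of the 23 member probes, 14 were well above background on all 8 arrays, 3 on some and 6 on none. The trefoil factors were measured by every probe. MUC5B (1 probe) and MUC12 (3 probes), a secreted and a membrane mucin, stayed at background throughout, as did 1 probe each of MUC1 and MUC2. The plot of levels by array shows the remaining probes, other than some of MUC4, MUC5AC and MUC2. Not drawn are the MUC4 probes apart from that at position 16218, MUC5AC at chr11:1161827-1161886 and MUC2 at position 1334.

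**Figure D1:**
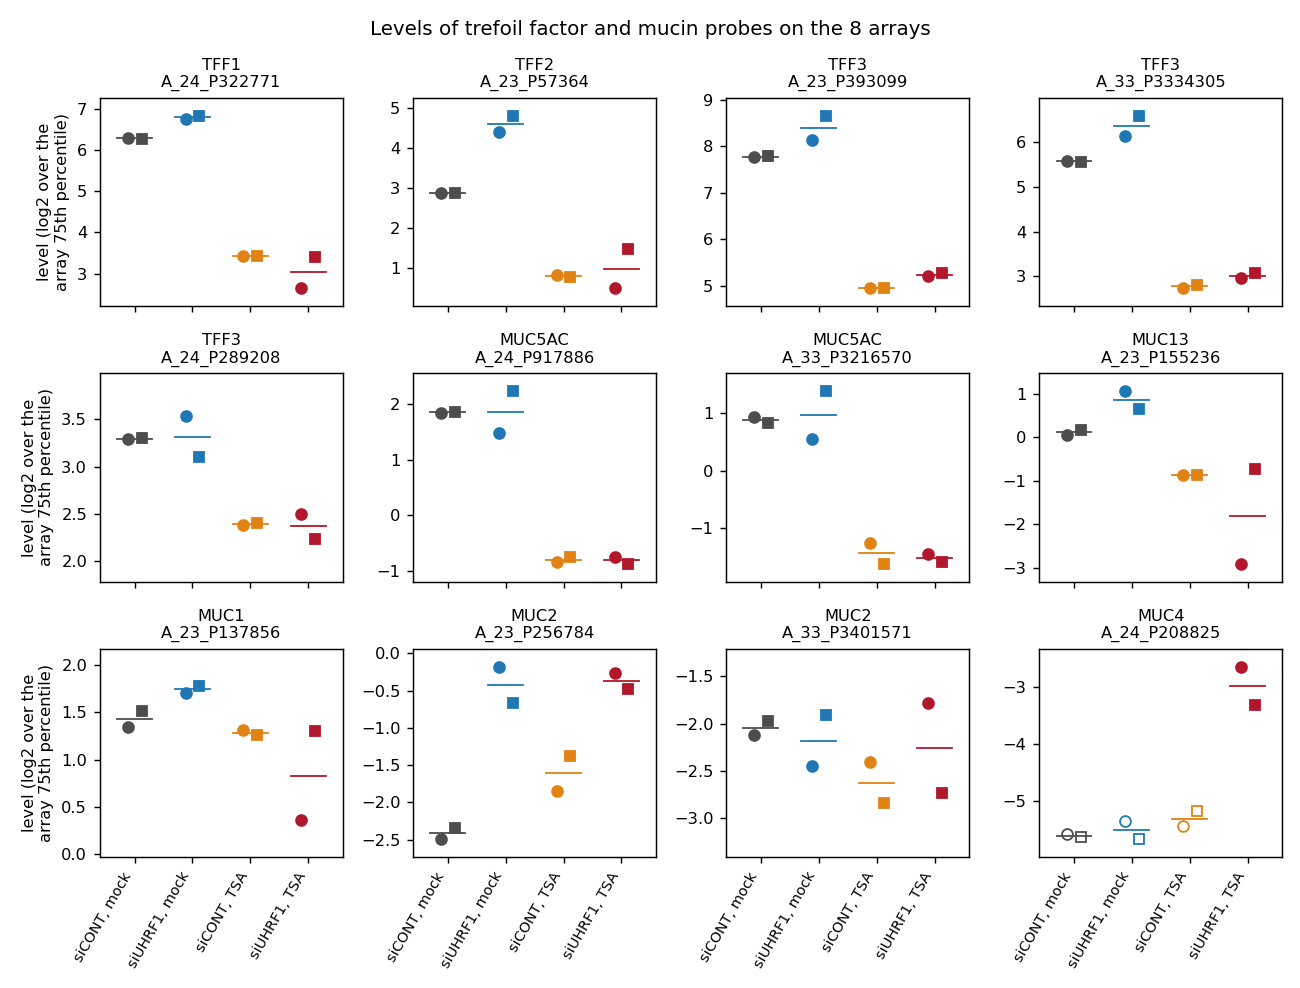
Level of the member probes drawn, which are not all of them (log2 relative to the array's 75th percentile, y axis, range differs by panel), on the 8 arrays, by group (x axis). Circles are replicate or siRNA 1, squares replicate or siRNA 2, bars the group means, and open symbols mark groups in which the probe was not well above background on both arrays. The TFF1, TFF2, TFF3 and MUC5AC panels show every TSA array below every mock array.

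Which mucus genes respond to HDAC inhibition was read from TSA against mock in siCONT cells. TSA lowered all 3 trefoil factors and MUC5AC. TFF1 was 7.21-fold lower, TFF3 7.08-fold and 6.92-fold lower by its stronger probes, MUC5AC 6.2-fold lower and TFF2 4.18-fold lower. Of 15 member probes tested, 7 were called lower, in 4 genes, and none higher by limma (adjusted p under 0.05 and at least 2-fold). A call lower was made for 8.21% of the 23239 probes tested across the array and a call higher for 10.4%. At an unadjusted p under 0.05, 9 member probes passed the test in limma, and the methods' t-test at its own threshold called 7. When the siCONT arrays counted as 1 sample, 2 member probes were called, both of TFF3, and 1.56% of probes across the array. The median change of the member probes was −0.98, against −0.11 over all probes tested. Mock and TSA arrays sat in different rows of the 1 slide, so TSA and slide row cannot be told apart. Since whole cultures were measured, fewer cells making a transcript and less RNA per cell cannot be told apart either.

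TFF1, the gastric-type trefoil peptide, read 6.28 and 6.27 in siCONT with mock and 3.43 and 3.42 with TSA. In siUHRF1 cells it read 6.75 and 6.82 with mock and 2.65 and 3.41 with TSA. All mock arrays lay above all TSA arrays, and the TSA arrays differed from mock by far more than the arrays of a group from each other. The change with TSA in siCONT cells was −2.85 ± 0.24 (log2, SE; limma adjusted p = 0.000794, and 0.0572 with the siCONT arrays as 1 sample, where the alternatives ranged from 0.00017 to 0.0572). Among all 23239 probes tested, 65 had a lower change.

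TFF2, the spasmolytic peptide, read 2.88 and 2.87 in siCONT with mock and 0.84 and 0.78 with TSA. In siUHRF1 cells it read 4.42 and 4.81 with mock and 0.5 and 1.47 with TSA. Again the mock and TSA arrays did not overlap, and the siUHRF1 mock arrays were the highest of all. The change with TSA in siCONT cells was −2.06 ± 0.32 (adjusted p = 0.00464, and 0.13 with the siCONT arrays as 1 sample, where the alternatives ranged from 0.000695 to 0.13).

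TFF3, the goblet cell trefoil peptide, had 3 probes, which start at transcript positions 559, 391 and 116. The probe at 559 read 7.77 and 7.78 in siCONT with mock, 8.13 and 8.65 in siUHRF1 with mock, 4.96 and 4.95 in siCONT with TSA, and 5.2 and 5.28 in siUHRF1 with TSA. The probe at 391 read 5.58, 5.56, 6.14, 6.58, 2.74, 2.82, 2.96 and 3.07 in the same order. Both were high on the 4 mock arrays and low on the 4 TSA arrays, with no overlap. The probe at 116 read 3.29, 3.3, 3.53, 3.1, 2.38, 2.4, 2.5 and 2.24 and was also lower on every TSA array than on any mock array. Its change with TSA in siCONT cells was −0.91 ± 0.18 (adjusted p = 0.0103), which is under 2-fold (1.87-fold). The probes at 559 and 391 changed by −2.82 ± 0.18 (adjusted p = 0.000414) and −2.79 ± 0.17 (adjusted p = 0.000366), and both kept the call with the siCONT arrays as 1 sample (adjusted p = 0.0461 for each, the highest over the alternatives, of which the lowest were 4.19e-05 and 3.53e-05).

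With MUC5B at background and not tested, MUC5AC, the gel-forming mucin of the gastric surface, was the secreted member mucin called lower with TSA. Its first probe read 1.84 and 1.85 in siCONT with mock, 1.48 and 2.22 in siUHRF1 with mock, −0.84 and −0.74 in siCONT with TSA, and −0.75 and −0.86 in siUHRF1 with TSA. The probe with no genome position read 0.93, 0.84, 0.56, 1.38, −1.26, −1.61, −1.45 and −1.58 in that order. On both probes every mock array exceeded every TSA array. In siCONT cells they changed by −2.63 ± 0.24 (adjusted p = 0.000964, and 0.0642 with the siCONT arrays as 1 sample, alternatives from 0.000264 to 0.0642) and by −2.32 ± 0.28 (adjusted p = 0.00215, and 0.0853, alternatives from 0.000834 to 0.0853). The third probe, chr11:1161827-1161886, was well above background on the 4 mock arrays, at −2.01, −1.81, −2.72 and −1.7, and on no TSA array. It was at least 3.55-fold lower with TSA in siCONT cells, a lower bound set by the dimmest signal told from background (adjusted p = 0.0263, and 0.209 with the siCONT arrays as 1 sample, alternatives from 0.014 to 0.209). That call was lost without any 1 of the 4 siCONT arrays, with adjusted p-values of 0.0941 and 0.107 without a mock array and 0.13 and 0.0503 without a TSA array.

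MUC2, the goblet cell mucin and a neighbour of MUC5AC, was not called with TSA in siCONT cells. Its probe at position 15183 read −2.49 and −2.34 in siCONT with mock, −0.18 and −0.67 in siUHRF1 with mock, −1.84 and −1.38 in siCONT with TSA, and −0.26 and −0.48 in siUHRF1 with TSA. Here the siUHRF1 arrays were the high ones under both agents, and they did not overlap with the siCONT arrays. The change with TSA in siCONT cells was 0.80 ± 0.23 (adjusted p = 0.0348), under 2-fold at 1.75-fold. The probe at position 4182 read −2.12, −1.97, −2.45, −1.91, −2.41, −2.84, −1.78 and −2.73 in that order. Its siCONT mock arrays lay above its siCONT TSA arrays and within the range of both siUHRF1 groups, and the change with TSA in siCONT cells was −0.58 (adjusted p = 0.226). The probes of MUC2 thus disagreed, and its other probes were dim, 1 of them above background on 1 array of each siUHRF1 group.

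No membrane mucin among the members was called with TSA in siCONT cells, and MUC12 was not tested. MUC1 read 1.34 and 1.51 in siCONT with mock, 1.7 and 1.78 in siUHRF1 with mock, 1.31 and 1.26 in siCONT with TSA, and 0.36 and 1.3 in siUHRF1 with TSA. The low value of 0.36 belonged to siRNA 1, and the change with TSA in siCONT cells was −0.14 (adjusted p = 0.723). MUC13 read 0.06, 0.16, 1.05, 0.64, −0.86, −0.87, −2.9 and −0.73 in the same order. Mock and TSA arrays did not overlap, but the change of −0.98 ± 0.64 in siCONT cells did not pass the test (adjusted p = 0.26). The SD of the 2 siRNAs under TSA was 1.53. For MUC4, the probes in the repeat region stayed within a narrow range, and their changes with TSA in siCONT cells lay between 0.03 and 0.13, none past the test.

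TSA against mock in UHRF1-depleted cells used the 4 siUHRF1 arrays and shared none with the siCONT comparison, though both take their error from 1 fit. All 3 trefoil factors and MUC5AC fell here too, and MUC13 with them. Of 16 member probes tested, 7 were called lower and 1 higher, in 6 genes, where 9.01% of 23912 probes across the array were called lower and 11.7% higher. Counting the siCONT arrays as 1 sample left 7 member calls, and 17.6% of probes called across the array. TFF1 changed by −3.76 ± 0.24 (adjusted p = 0.000252), 13.5-fold, which left 5.82% of its mock signal with siRNA 1 and 9.42% with siRNA 2. TFF2 changed by −3.63 ± 0.32 (adjusted p = 0.000616), 12.4-fold, which left 6.59% and 9.9%. Of all probes tested, 27 and 29 had a lower change than these gastric-type peptides. The TFF3 probes at 559 and 391 changed by −3.15 ± 0.18 and −3.34 ± 0.17 (adjusted p = 0.000189 and 0.000141), 8.88-fold and 10.2-fold. The probe at 116 changed by −0.94 ± 0.18 (adjusted p = 0.00805), again under 2-fold. With the siCONT arrays as 1 sample the adjusted p-values of TFF1, TFF2 and the stronger TFF3 probes lay between 0.00304 and 0.0057, and over all alternatives between 8.68e-06 and 0.156.

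MUC5AC fell in UHRF1-depleted cells by 2.65 ± 0.24 and 2.48 ± 0.28 on the log2 scale by the 2 stronger probes (adjusted p = 0.000692 and 0.00139, and 0.00739 and 0.01 with the siCONT arrays as 1 sample, alternatives from 0.000152 to 0.169). The third probe was at least 2.27-fold lower and did not pass the test (adjusted p = 0.09). MUC13, a membrane mucin of the gut surface, changed by −2.66 ± 0.64 (adjusted p = 0.0194, and 0.0581 with the siCONT arrays as 1 sample, alternatives from 0.00104 to 0.316), and its siRNAs differed. With siRNA 1 it kept 6.46% of its mock signal and with siRNA 2 38.6%. Without the mock array of siRNA 1 or of siRNA 2 its adjusted p was 0.0845 or 0.0527. MUC1 did not pass the test (−0.90 ± 0.29, adjusted p = 0.052), but was called without the TSA array of siRNA 2 (−1.37, adjusted p = 0.00349), which leaves siRNA 1 alone under TSA. With arrays scaled to their median, limma called MUC1 lower as well (−1.29, adjusted p = 0.0146). Under TSA the array of siRNA 1 was below that of siRNA 2 for TFF1, TFF2, MUC1 and MUC13 alike.

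MUC4 was the member called higher with TSA in depleted cells, at its probe at position 16218. This probe read −5.59, −5.64, −5.35, −5.67, −5.45 and −5.17 on the first 6 arrays, none well above background, and −2.64 and −3.31 in siUHRF1 with TSA, both above it. It was at least 1.55-fold higher than in siUHRF1 with mock (adjusted p = 0.000895, and 0.00802 with the siCONT arrays as 1 sample, alternatives from 0.000639 to 0.158). The repeat-region probes of MUC4 read between −1.36 and 0.72 over all arrays. The overlapping pair changed by 0.60 and 0.77 in this comparison (adjusted p = 0.0245 and 0.0152) and the other by 0.27 (0.305), so none reached 2-fold. With the normexp background correction the change of the probe at 16218 was under 2-fold (0.43 on the log2 scale).

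**Figure D2:**
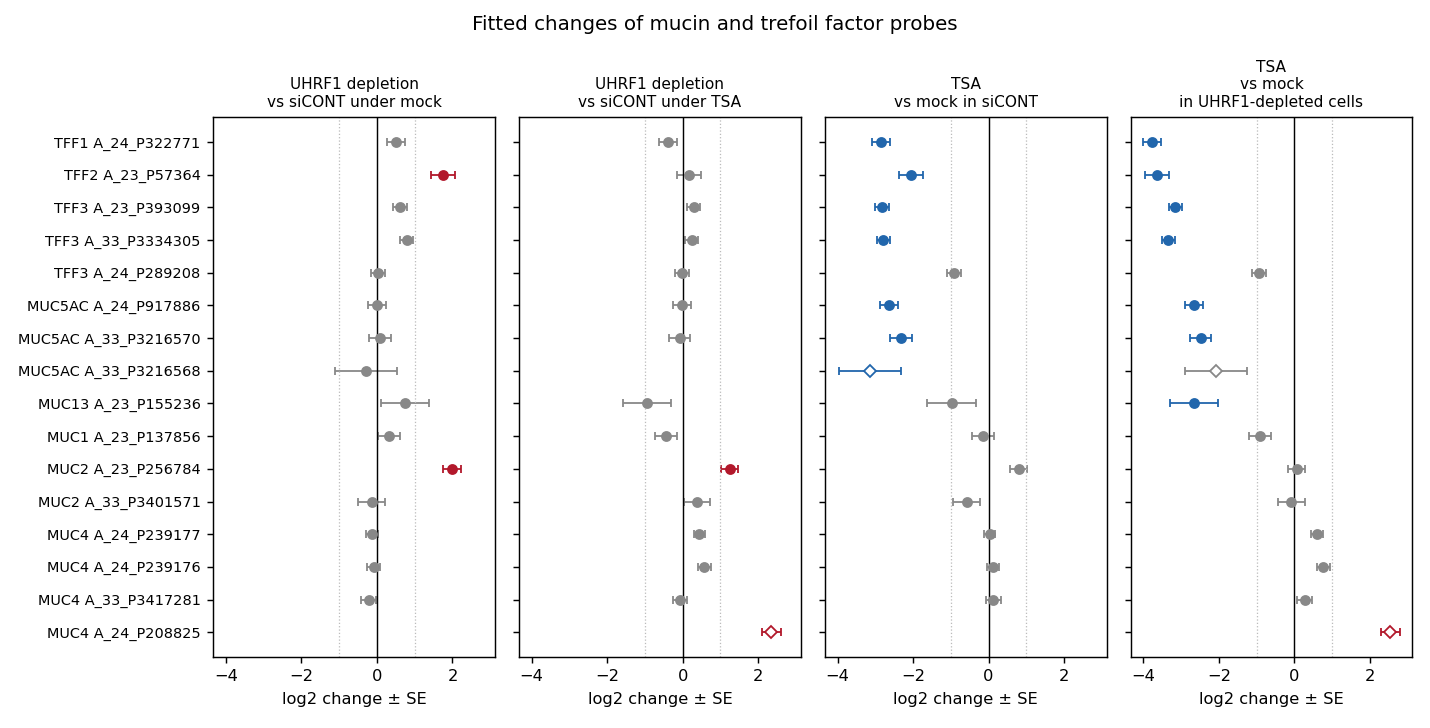
Log2 change (x axis) with its SE for each member probe (y axis) in 4 comparisons, with dotted lines at 2-fold. Blue probes were called lower, red higher and grey not called, and open diamonds mark fitted changes with 1 group dim on both arrays, which are not bounds. The TFF3 probes stand in the order of positions 559, 391 and 116, and the last MUC4 probe is that at position 16218. TFF1, TFF2, the stronger TFF3 probes and the first and second MUC5AC probes are called lower by TSA in both siCONT and UHRF1-depleted cells.

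UHRF1 depletion under mock addressed what loss of the methylation factor does by itself. TFF2 and MUC2 rose, TFF2 by 3.34-fold and MUC2 by 3.97-fold at its 3′ probe. Of 15 member probes tested these 2 were called, both higher, where 3.13% of 22391 probes across the array were called higher and 0.987% lower. Once the siCONT arrays were 1 sample none was called by limma (3 at an unadjusted p under 0.05), and 0.0223% of probes were called across the array. The methods' t-test called 2 at its unadjusted threshold. This comparison shares its siCONT mock arrays with TSA against mock in siCONT, and its siUHRF1 mock arrays with that in depleted cells.

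TFF2 changed by 1.74 ± 0.32 (adjusted p = 0.0312, and 0.38 with the siCONT arrays as 1 sample, alternatives from 0.00942 to 0.38), by 1.55 with siRNA 1 and 1.93 with siRNA 2 against the siCONT mean. Both siRNAs gave a level clearly above the siCONT arrays. Its call was lost without either siCONT mock array (adjusted p = 0.175 and 0.166), without siRNA 2 under mock (0.0734) and without either siCONT TSA array (0.0818 for each). MUC2 changed by 1.99 ± 0.23 (adjusted p = 0.0112, and 0.178 with the siCONT arrays as 1 sample, alternatives from 0.00865 to 0.188), by 2.23 and 1.75 with the 2 siRNAs. Its call was lost without either siCONT mock array (0.0924 and 0.0794), and its probe at position 4182 changed by −0.14 (adjusted p = 0.813). With the normexp background correction the change at position 15183 was under 2-fold (0.95 on the log2 scale). That probe's signal in siCONT with mock was 24.5 and 28.2, where the lowest signal told from background was 13.3 and 13.4.

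The other trefoil factors read higher with both siRNAs but were not called. TFF1 changed by 0.51 ± 0.24 (adjusted p = 0.207), by 0.48 and 0.55 with the 2 siRNAs. TFF3 changed by 0.61 at position 559 (adjusted p = 0.0856) and by 0.79 ± 0.17 at position 391 (adjusted p = 0.0429, under 2-fold). Without siRNA 1 under mock the latter was called (1.01, adjusted p = 0.0101). MUC5AC, by contrast, was lower with siRNA 1 and higher with siRNA 2, by −0.36 and 0.38 at the first probe, so its mean change of 0.01 had no common direction. MUC13 changed by 0.74 ± 0.64 (adjusted p = 0.459) and MUC1 by 0.31 (adjusted p = 0.495).

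**Figure D3:**
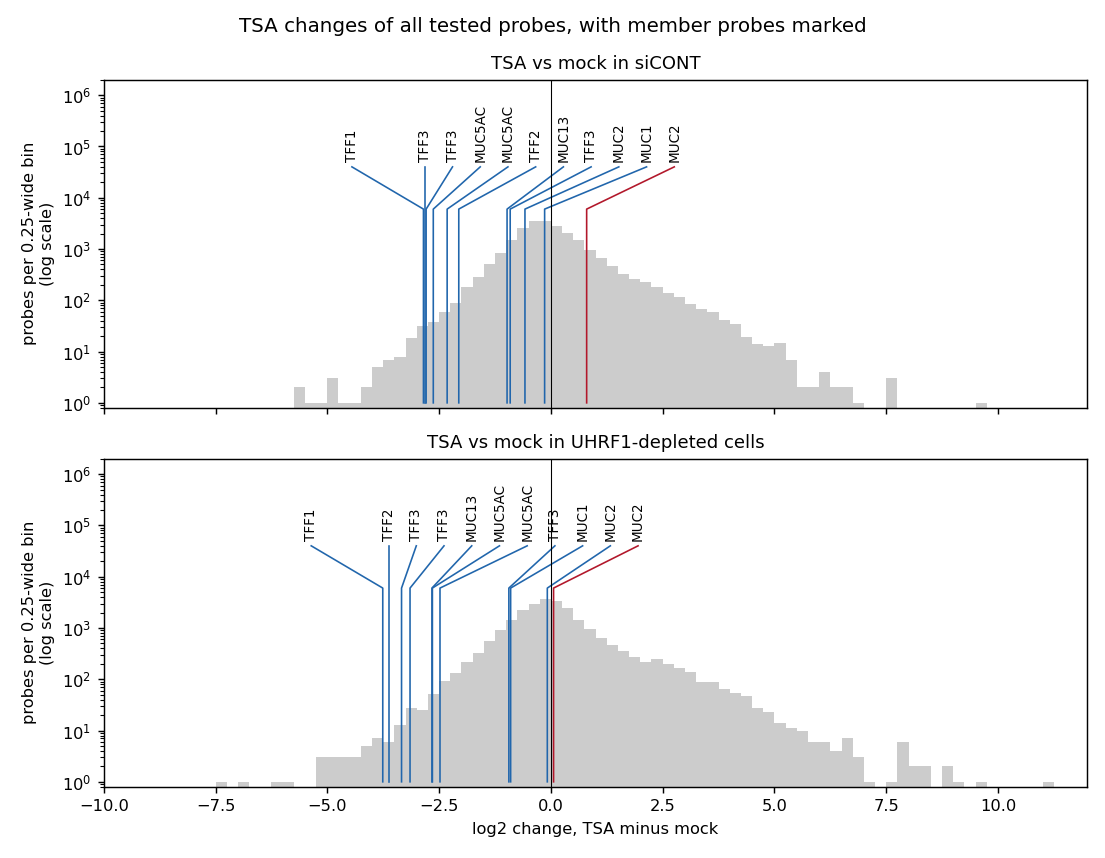
Number of probes (y axis, log scale) by log2 change with TSA (x axis, bins of 0.25) over all probes tested in siCONT cells (23239, upper) and in UHRF1-depleted cells (23912, lower), with the member probes above background on all arrays marked, other than those of MUC4. Blue lines are changes below 0 and red above. TFF1, the stronger TFF3 probes and both marked MUC5AC probes lie in the left tail of both, with 65 probes below TFF1 in siCONT cells and 27 in depleted cells.

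UHRF1 depletion under TSA gave no call for a trefoil factor. MUC2 and MUC4 were each higher at 1 probe. Of 15 member probes tested, these 2 were called, where 5.39% of 23844 probes across the array were called higher and 2.87% lower. In the fit with the siCONT arrays as 1 sample none was called by limma (2 at an unadjusted p under 0.05), against 0.692% of probes across the array, and the methods' t-test at its own threshold called 2. MUC2 changed by 1.24 ± 0.23 at position 15183 (adjusted p = 0.0195, and 0.211 with the siCONT arrays as 1 sample, alternatives from 0.0101 to 0.211), 2.37-fold. Its call was lost without either siCONT TSA array and without siRNA 1 under TSA. The MUC2 change was also under 2-fold with the normexp correction (0.74) and with arrays scaled to their median (0.89). The MUC2 probe at position 4182 changed by 0.37 (limma adjusted p = 0.498). MUC4 at position 16218 was at least 1.7-fold higher (adjusted p = 0.00523, and 0.0902 with the siCONT arrays as 1 sample, alternatives from 0.00382 to 0.126). That MUC4 probe was above background in siUHRF1 with TSA alone, and with the normexp correction it changed by 0.41 (limma adjusted p = 0.0565). The repeat-region probes of MUC4 changed by 0.44, 0.57 and −0.08, none called. TFF1 changed by −0.39 (adjusted p = 0.293). TFF2 changed by 0.17 (adjusted p = 0.731) and TFF3 by 0.29 at position 559 (adjusted p = 0.308), and with arrays scaled to their median these were −0.18 and −0.07. MUC13 changed by −2.03 with siRNA 1 and by 0.14 with siRNA 2.

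Whether the response to TSA differed between depleted and siCONT cells was tested by the interaction term. Of 16 member probes, 1 was called, MUC4 at position 16218, which is above background in siUHRF1 with TSA alone and so has no measured interaction, where 2.83% of 24589 probes across the array were called higher and 2.07% lower. Taking the siCONT arrays as 1 sample, limma called 0 member probes and 0% of probes across the array, and 1 member probe passed an unadjusted p under 0.05. The MUC4 call was also lost without any 1 of the 4 siCONT arrays (adjusted p between 0.109 and 0.124). TFF2 gave −1.57 ± 0.45 (adjusted p = 0.09), TFF1 −0.91 ± 0.34 (adjusted p = 0.15), the TFF3 probe at 391 −0.55 (adjusted p = 0.187) and MUC13 −1.69 (adjusted p = 0.266). The falls of the trefoil factors in depleted cells were thus not shown to differ from those in siCONT cells, although with the normexp background correction TFF2 was called (−1.61, adjusted p = 0.0293, alternatives from 0.0282 to 0.597). Without siRNA 2 under TSA, which leaves siRNA 1 alone there, 5 member probes were called, which were MUC4 at position 16218, TFF1 (−1.29, adjusted p = 0.0261), TFF2 (−2.05, 0.0282), MUC13 (−2.77, 0.0216) and MUC1 (−1.23, 0.0331).

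Both treatments together, against siCONT with mock, gave the highest number of member calls. Of 16 member probes tested, 7 were called lower and 2 higher, in 7 genes, where 11.1% of 23734 probes across the array were called lower and 14.5% higher. The fit with the siCONT arrays as 1 sample called 7, and 15.4% of probes across the array. TFF1 changed by −3.24 (adjusted p = 0.000295), 9.47-fold, TFF2 by −1.89 ± 0.32 (0.0044), 3.71-fold, and TFF3 by −2.54 and −2.55 (0.000267 and 0.000208), 5.8-fold and 5.86-fold. With the siCONT arrays as 1 sample TFF2 lost its call (adjusted p = 0.0546, alternatives from 0.00116 to 0.127), and TFF1 kept it (0.0107, alternatives from 4.98e-05 to 0.0581). MUC5AC changed by −2.65 and −2.40 (0.000533 and 0.00118). The stronger TFF3 probes and these MUC5AC probes kept their calls with the siCONT arrays as 1 sample (adjusted p between 0.011 and 0.022, alternatives from 2.1e-05 to 0.0253). MUC13 changed by −1.92 ± 0.64 (0.0485, and 0.197 with the siCONT arrays as 1 sample, alternatives from 0.00141 to 0.306). The call was lost without any array other than that of siRNA 2 with TSA: the adjusted p lay between 0.0742 and 0.152 without any of 6 arrays, and without that of siRNA 1 with TSA the change was −0.84. MUC2 was 4.13-fold higher at position 15183 (2.05 ± 0.23, adjusted p = 0.00105) and MUC4 at position 16218 at least 1.34-fold higher (0.000598). Both probes kept their calls with the siCONT arrays as 1 sample (0.019 and 0.0152, alternatives from 0.000391 to 0.0623). With the normexp correction both changes were under 2-fold, at 0.98 and 0.39 on the log2 scale. The MUC2 probe at position 4182 changed by −0.22 (limma adjusted p = 0.638). The repeat-region probes of MUC4 changed by 0.47, 0.69 and 0.05, none called.

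Other genes of the mucus programme were taken as lists. Their counts are to be read beside the shares of all probes tested. With TSA in siCONT cells 10.4% were called higher and 8.21% lower. The shares were 3.13% and 0.987% under UHRF1 depletion with mock, and 11.7% and 9.01% with TSA in depleted cells. Among the other mucins, 6 genes were tested for TSA in siCONT cells, with 3 called higher and 2 lower and a median change of 0.74 (0.01 with bounds in place of fitted changes for dim genes, against −0.11 over all probes). MUCL1, a small secreted mucin-like protein, was at least 6.27-fold higher (adjusted p = 0.00852), MUC20, a membrane mucin, changed by 1.68 (0.0143), and OVGP1, the oviductal mucin, by −1.13 (0.00546). None of the list was called with the siCONT arrays as 1 sample in this comparison. Under UHRF1 depletion with mock, 1 of 4 tested was called, MUC20 at 2.55 ± 0.36 (adjusted p = 0.0189), a call that was lost with the siCONT arrays as 1 sample (0.221).

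Among 16 tested goblet and secretory transcription factors, 1 was called higher and 2 lower with TSA in siCONT cells (median −0.19). KLF4, a factor of goblet cell differentiation, changed by 1.28 ± 0.14 (adjusted p = 0.00157). HNF4A, a factor of intestinal epithelium, was at least 2.16-fold lower (0.00652), and HES1, a Notch target, changed by −1.21 (0.0167). SPDEF, which drives goblet cell maturation, changed by 1.66 ± 0.37 under UHRF1 depletion with mock (0.0473) and by −2.38 ± 0.37 with TSA in depleted cells (0.00415). Its mean level, like that of TFF2, was highest in siUHRF1 with mock. Of the list, no factor was called with TSA in siCONT cells or under UHRF1 depletion with mock when the siCONT arrays were 1 sample, and 2 were with TSA in depleted cells. FOXA2, a pioneer factor of endodermal tissues, moved the other way, by −1.53 ± 0.12 under depletion (0.00607) and by 2.28 ± 0.12 with TSA in depleted cells (0.000157). ATOH1, the factor that commits cells to the secretory lineage, stayed at background on all arrays.

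Goblet cell products and mucus processing genes split. Of 19 tested with TSA in siCONT cells, 7 were called higher and 5 lower (median 0.01, and 0 with bounds). AGR2, the disulfide isomerase that folds MUC2, changed by −1.29 ± 0.13 (adjusted p = 0.00143), LRRC26 by −1.76 ± 0.12 (0.00044) and the glandular kallikrein KLK1 by −1.35 (0.00126), while the lectins ITLN1 and ZG16 rose, ITLN1 at least 7.75-fold and ZG16 by 2.86 (0.00965). The transglutaminase TGM2 was at least 6.47-fold higher, the 1 gene of the list still called with the siCONT arrays as 1 sample. SPINK4, a goblet cell protease inhibitor, changed by 2.79 ± 0.28 (0.00126). Under UHRF1 depletion with mock, 2 of 16 tested were called, both higher, the lectin-like ZG16B at 4.49 ± 0.41 (0.00739) and FCGBP, a mucus-bound protein, at 1.5 (0.0283). Neither was called with the siCONT arrays as 1 sample (0.0846 and 0.353). In depleted cells TSA lowered 7 of 18 and raised 4, with ZG16B at −3.29 (0.00201) and AGR2 at −1.44 (0.000775).

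Of 26 tested mucin-type O-glycosylation enzymes, 4 were called higher and 1 lower with TSA in siCONT cells (median 0.21). Across the array 10.4% of probes were called higher and 8.21% lower. GCNT3, which branches mucin sugars, was at least 9.61-fold higher (adjusted p = 0.00057), the 1 gene of the list still called with the siCONT arrays as 1 sample, the fucosyltransferase FUT2 changed by 1.79, and the sialyltransferase ST3GAL1 by −3.04 ± 0.31 (0.00131).

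**Figure D4:**
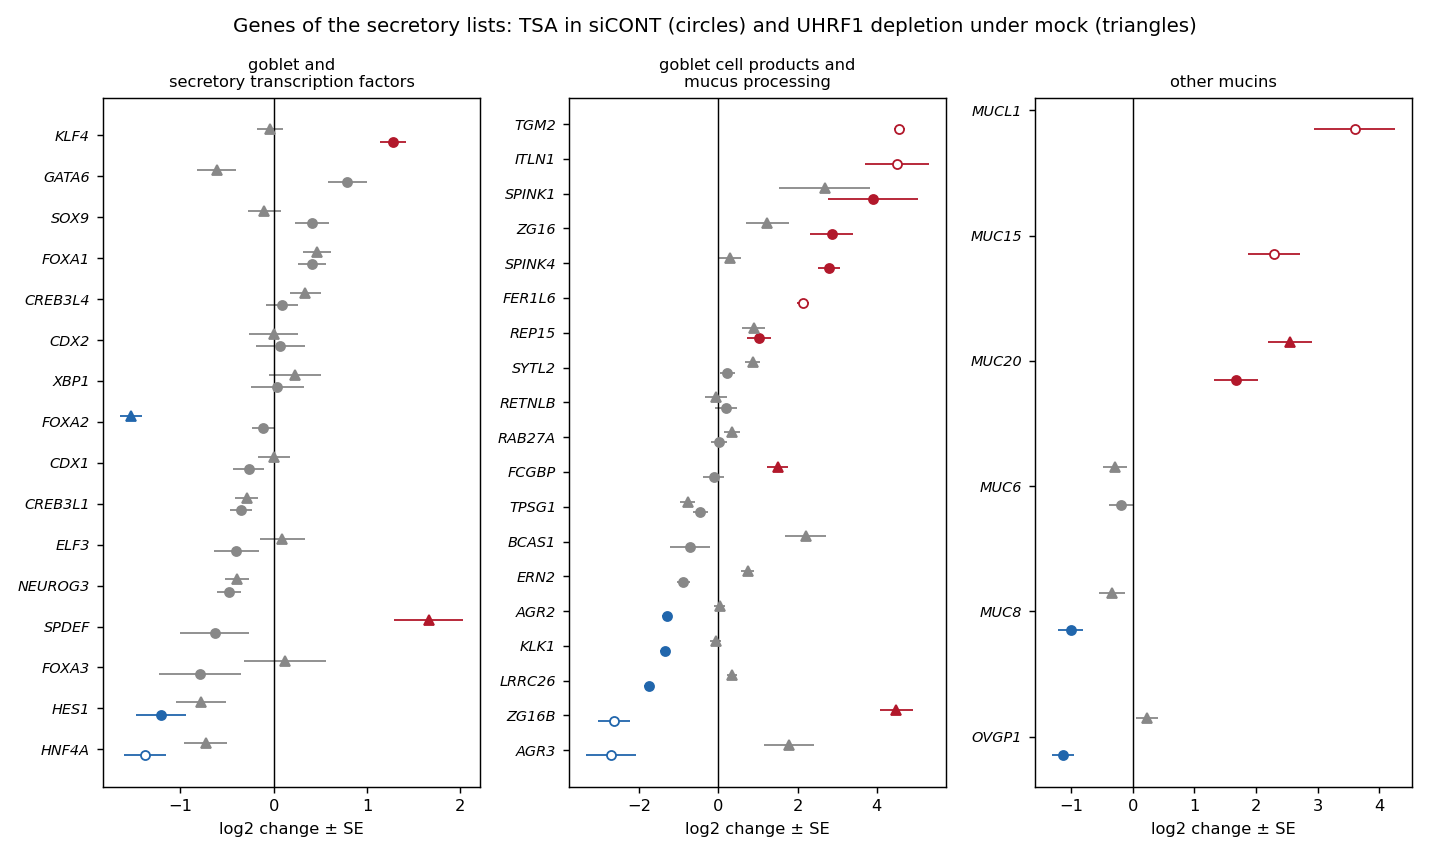
Log2 change (x axis) of the genes of 3 lists, goblet and secretory transcription factors, goblet cell products and mucus processing, and other mucins (y axis). Circles are TSA in siCONT cells, triangles UHRF1 depletion under mock, colour marks genes called higher (red) or lower (blue), and open symbols mark fitted changes with 1 group dim, which are not bounds. Bars are the SE. Within each list genes lie on both sides of 0 under TSA.

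Markers of other cell types moved with the groups. Summed signals here were not divided by each array's 75th percentile, so they also move with that percentile. The percentile was 137 and 143 in siCONT with mock, 189 and 150 in siUHRF1 with mock, 168 and 169 in siCONT with TSA, and 150 and 163 in siUHRF1 with TSA. For the goblet cell markers the sum lay between 50000 and 52000 in siCONT with mock, 79400 and 84100 in siUHRF1 with mock, 18100 and 18300 in siCONT with TSA, and 16000 and 21400 in siUHRF1 with TSA. It includes the members TFF3 and MUC2. The mean level of the list did not move that way, at −0.61 and −0.51, 0.16 and 0.27, −0.5 and −0.42, and −0.02 and 0.08 in the same order, and with TSA in siCONT cells 2 of 7 tested were called higher and 2 lower. Of 12 gastric-type markers on the array, 3 were tested under UHRF1 depletion with mock. Only PSCA was called there, at 4.08 ± 0.17 (limma adjusted p = 0.00198). With TSA in depleted cells 4 were tested and again only PSCA was called, at −4.09 (8.2e-05). Of the absorptive colonocyte markers, 3 of 5 tested were called higher under UHRF1 depletion with mock, FABP1 by at least 22.3-fold, where 3.13% of probes across the array were called higher. None of the gastric-type or absorptive markers was called in that comparison with the siCONT arrays as 1 sample. The fibroblast, endothelial and leukocyte markers summed to between 101 and 105, 143 and 243, 337 and 342, and 541 and 546 in the order of groups above, with COL1A2, COL3A1, PECAM1, PTPRC and CD3E at background throughout. The colorectal line markers summed to between 247000 and 366000 over all arrays. Their mean level was 5.3 and 5.31 in siCONT with mock, 5.71 and 5.57 in siUHRF1 with mock, 4.39 and 4.35 in siCONT with TSA, and 4.52 and 4.64 in siUHRF1 with TSA, lower on every TSA array. Of the 12, 3 were called lower with TSA in siCONT cells (2 with the siCONT arrays as 1 sample) and 4 in depleted cells (3). Across the array 8.21% and 9.01% of probes were called lower in these comparisons. The enteroendocrine markers summed to between 413 and 417, 1120 and 1190, 283 and 291, and 685 and 832 in that order, with 6 of 12 above background on at least 1 array. Their mean level lay between −4.57 and −4.38, −4.92 and −4.59, −4.91 and −4.82, and −4.38 and −3.55, and 1 of them could be tested under UHRF1 depletion with mock. The part of these markers in the changes of the members was not tested.

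The genes most like the members over the 8 arrays were sought among 20080 probes, by the root mean square distance of levels centred on each gene's own mean. TFF2, TFF1 and TFF3 had the widest ranges of group means among the members, 3.8, 3.76 and 3.44. Closest to TFF2 was CHDH (choline dehydrogenase), at a distance of 0.23 (Pearson r = 1 after rounding), and closest to TFF1 was TFF3 at 0.33 (r = 0.98), then the transcription factor MYB at 0.33. Closest to TFF3 was the cytokine IL1B at 0.23, itself above background on 4 arrays. These are descriptions over 8 arrays in 4 groups that share agent and slide row.

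Neighbouring genes, chosen after the values of the members were seen, were read to set each cluster in place. Of 10 neighbours of the TFF genes 8 were tested, and none was called by limma with TSA in siCONT cells, where their changes ran from −0.51 to 0.42, with 0 at an unadjusted p under 0.05 and 0 by the methods' t-test. In depleted cells 2 were called lower, C2CD2 (−1.5) and SLC37A1 (−1.07). Under UHRF1 depletion with mock 0 of the 8 were called, and 3 had an unadjusted limma p under 0.05. Their changes ran from −0.21 to 1.32. RSPH1 changed by 1.32 and SLC37A1 by 0.81, against 0.51 for TFF1, 1.74 for TFF2 and 0.61 for TFF3 at position 559. Of 11 neighbours of the MUC genes on chromosome 11, 9 were tested and 1 was called with TSA in siCONT cells, the tetraspanin TSPAN4 (1.22 ± 0.21, adjusted p = 0.00731). MUC6, the gland mucin beside MUC2, changed by −0.19 and was not called.

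**Figure D5:**
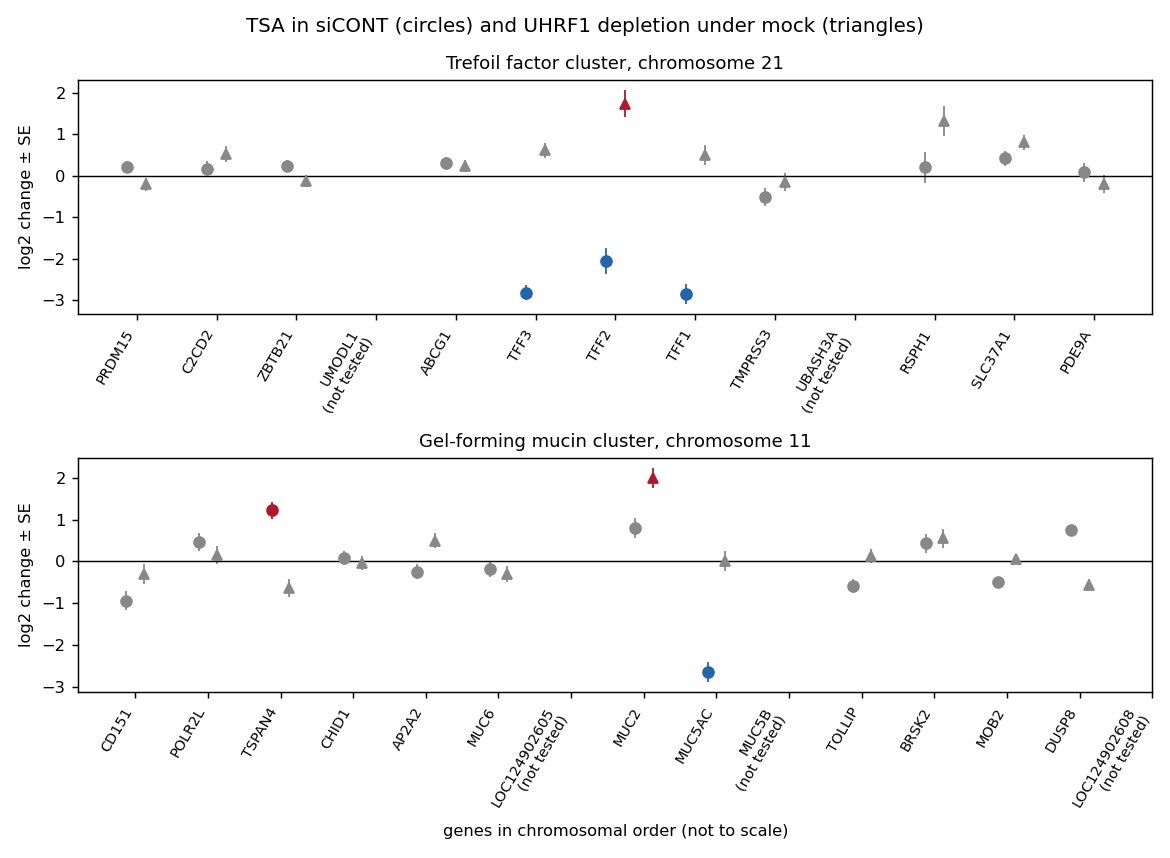
Log2 change (y axis) of the genes around the TFF cluster on chromosome 21 and the mucin cluster on chromosome 11, in chromosomal order and not to scale (x axis). Circles are TSA in siCONT cells, triangles UHRF1 depletion under mock, bars the SE, red called higher and blue called lower. With TSA in siCONT cells the TFF genes lie between −2.85 and −2.06 at their plotted probes, and the tested neighbours between −0.51 and 0.42.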

How the data were processed

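Per the labels, total RNA of DLD1 cells was labelled with Cy3 by the Low Input Quick Amp kit and hybridised to Agilent SurePrint G3 Human GE v2 arrays, 1 colour. Per the file headers, the authors' deposited intensity values came from Agilent Feature Extraction 10.7.3.1 (protocol GE1_107_Sep09), which subtracts background, and probe coordinates are hg19. The 8 arrays came from 1 slide and 1 scan. The deposited value table held the same intensities, and the authors' further normalization is not given in the sources used here.

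Processed signal was divided by each array's 75th percentile over non-control probes and taken to log2, with spots of one probe averaged. Linear models with 4 group means were fitted to all arrays in limma 3.58.1 (R 4.3.3; 4 residual and 2.17 prior degrees of freedom). A probe was tested when at least 1 group compared had it well above background on each of its arrays. A call needed a Benjamini-Hochberg adjusted p under 0.05, over all probes tested, and a 2-fold change. Where 1 group was dim on both arrays, the fold is a lower bound against the lowest signal told from background. The number of arrays limits the precision. Of a listed gene, the probe with the highest mean level was used, and up to 4 called genes in each direction were named by size of change. Every member probe was reported. The scripts were tested on simulated data. Alternatives were quantile, median and detected-probe scaling, normexp correction (offset 50), other filters, the siCONT arrays as 1 sample, a replicate block, only the groups compared, the methods' t-test and leaving out each array. The members and lists were chosen with earlier results of these data known. MUC3B and LYZ had no probe under these names, and 1 marker gene of the lists and 1 probe sequence are not reported here. No saturated spot was found.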

Additional observations from a re-analysis of the deposited data

Results flagged for a closer look

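The change with TSA differed between UHRF1-depleted and siCONT cells, by the interaction term of limma (adjusted p under 0.05 and at least 2-fold), for 6 genes of the lists that were above background on at least 1 array of every group. It was the more positive one in depleted cells for FOXA2 (2.39), and the more negative one for MUC20 (−2.56), KLF4 (−1.04), PSCA (−2.73), the absorptive marker CEACAM7 (−2.51) and LGALS4 (−1.5). With the siCONT arrays as 1 sample 0 of these, and 0 probes across the array, were called by limma.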

How the results depend on the processing

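The direction of every called member probe held in all alternatives. Some changes that were not called changed sign, among other settings under median scaling or without 1 siUHRF1 or siCONT array. The number of member probes called moved in many settings. For TSA in siCONT cells (7) it was 6 with normexp correction, with probes above background on all arrays, and by the adjusted t-test. For both treatments together (9) it was 11 with median scaling, 6 with normexp correction and 7 by the unadjusted t-test. It was 8 there with detected-probe scaling, no filter, probes above background on all arrays, the replicate block and only the groups compared. For TSA in depleted cells (8) it was 11 with median scaling and 9 with quantile normalization. It was 7 there with normexp correction, probes above background on all arrays, only the groups compared, and by the unadjusted t-test. Counts with the siCONT arrays as 1 sample are given above for each comparison. The number of member probes called moved further as follows. For UHRF1 depletion under mock (2) it was 1 with normexp correction, 1 with no filter on dim probes, 0 with the siCONT arrays as 1 sample, 0 with only the groups compared, 0 by the methods' t-test after Benjamini-Hochberg, and 0 to 3 with 1 array left out. For TSA in siCONT cells (7) it was 2 with the siCONT arrays as 1 sample, and 6 to 7 with 1 array left out. For both treatments together (9) it was 5 by the adjusted t-test, and 8 to 10 with 1 array left out. For UHRF1 depletion under TSA (2) it was 1 with median scaling, 0 with normexp correction, 1 with no filter, 1 when a probe had to exceed background on all 8 arrays, 0 with the siCONT arrays as 1 sample, 0 by the adjusted t-test, and 1 to 3 with 1 array left out. For TSA in depleted cells (8) it was 0 by the adjusted t-test, and 7 to 10 with 1 array left out. Calls gained without an array of siRNA 1 or siRNA 2 were MUC5AC at chr11:1161827-1161886 and TFF3 at position 116 for TSA in depleted cells without siRNA 1 under TSA (−3.19 and −1.07), the same TFF3 probe without siRNA 2 under mock (−1.16), both probes without siRNA 1 under TSA for both treatments (−3.5 and −1.05), MUC1 for both treatments without siRNA 2 under TSA (−1.06), and MUC13 for UHRF1 depletion under TSA without siRNA 2 (−2.03). For the interaction (1) it was 0 with quantile normalization, 0 with no filter, 0 when it had to exceed background on all 8 arrays, 0 with the siCONT arrays as 1 sample, and 0 to 5 with 1 array left out. Fewer samples or probes enter the fits that leave out or average arrays or filter more; otherwise the cause was not tested.

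Replicate numbers were shared across groups, but deviations from group means correlated only between siUHRF1 with mock and siUHRF1 with TSA (0.34), where the number is the siRNA, and by −0.06 to 0.07 otherwise. With the replicate block 2, 7, 8, 2, 8 and 1 member probes were called in the order UHRF1 depletion under mock, TSA in siCONT cells, both treatments, UHRF1 depletion under TSA, TSA in depleted cells and interaction.

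Counts of called probes across the array moved by more than 1.5 times as follows. UHRF1 depletion under mock (921) gave 301 with normexp correction, 406 with no filter, 5 with the siCONT arrays as 1 sample, 3 with only the groups compared, 0 by the adjusted t-test and 88 to 1894 with 1 array left out. TSA in siCONT cells (4317) gave 1708 with normexp and 362 with the siCONT arrays as 1 sample. Both treatments (6077) gave 2639 with normexp, 3881 with probes above background on all arrays, 3660 with the siCONT arrays as 1 sample and 2714 by the adjusted t-test. UHRF1 depletion under TSA (1970) gave 3001 with median scaling, 744 with normexp, 1092 with probes above background on all arrays, 165 with the siCONT arrays as 1 sample, 0 by the adjusted t-test and 451 and 465 without a siCONT TSA array. TSA in depleted cells (4952) gave 2361 with normexp, 3099 with probes above background on all arrays, 0 by the adjusted and 3286 by the unadjusted t-test. The interaction (1203) gave 775 with normexp, 213 with no filter, 0 with the siCONT arrays as 1 sample, 675 with the block and 38 to 2838 with 1 array left out.

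Median scaling shifted the median of all probes for both treatments from −0.14 to −0.54, for UHRF1 depletion under TSA from 0 to −0.35, and for TSA in depleted cells from −0.04 to −0.43. A slide block could not be fitted with 1 slide, and the deposited value table was not run because it held the scanner values (ratio 0.995 to 1).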
